A study of Canis lupus familiaris with 12 samples.

Results

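The BCL2 family members BCL2, BCL2L1 and BID and the initiator caspases CASP8 and CASP10, genes of programmed cell death, were compared between irradiated and non-irradiated lymph nodes of dogs. They were chosen from a canine immuno-oncology panel as probes whose symbol is BCL2, BCL2L1, BCL2L11, MCL1 or BID or begins with CASP and a digit, a rule met by 6 of its 780 endogenous genes, of which 5 are described. BCL2L11 and MCL1 had no probe in the table and were not analysed here. RNA was counted by NanoString nCounter, in which barcoded probes hybridise to each transcript and are counted without amplification. The samples came from 6 dogs with sinonasal cancer, whose tumors all received 3 fractions of 10 Gy by stereotactic body radiation therapy (SBRT). In 3 of these dogs, 7 to 14 years old, the submandibular and retropharyngeal nodes of both sides were also treated, which is called elective nodal irradiation (ENI). In the other 3 dogs, 3 to 9 years old, no node was irradiated. Per the study's methods, mandibular nodes of the tumor side were removed 2 weeks after SBRT. Age differed along with nodal irradiation, so their effects cannot be told apart. The groups also held different sexes and tumors, with 2 males and 1 female in the irradiated and 1 male and 2 females in the non-irradiated group, and 1 sarcoma, which was in the irradiated group. Each dog gave 2 of the 12 samples, and what sets the 2 apart is not stated in the labels. No node was sampled before treatment and no healthy node was included.

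Apoptosis runs along 2 converging routes. In the mitochondrial route, BCL2 and BCL-xL, the main product of BCL2L1, restrain the pore-forming proteins BAX and BAK, and BH3-only proteins such as BID release that restraint. In the death receptor route, ligands such as FAS ligand bring together the initiator caspases CASP8 and CASP10, which cleave and switch on caspases further down. BID links both routes, because CASP8 cleaves it into a form that acts on mitochondria. Resting lymphocytes depend on BCL2 for survival and are among the cells that radiation kills most readily, and BAX takes part in that death. Caspases are stored as inactive proteins and switched on by cleavage, so the transcript levels measured here do not report their activity.

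None of the 5 genes differed between irradiated and non-irradiated nodes past the threshold. CASP8, BID and BCL2L1 had higher values in irradiated nodes, by 1.21- to 1.33-fold, while BCL2 and CASP10 had lower values. By limma's moderated test on the deposited group values and SDs, adjusted by Benjamini-Hochberg over the 780 endogenous genes, 0 of 5 had an adjusted p under 0.05, against 3.59% of the panel (28 genes, 13 higher and 15 lower). At an unadjusted p under 0.05 there was 1, CASP8, higher in irradiated nodes. That p was reached by 21.9% of the panel in either direction and by 8.46% in the direction of higher values. With each gene's own variance, as in the unpaired test that the methods name, 0 of 5 passed the adjusted threshold too. These tests count both samples of a dog as if they were independent, which makes the p-values too small to the extent that samples of 1 dog are alike.

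**Figure D1:**
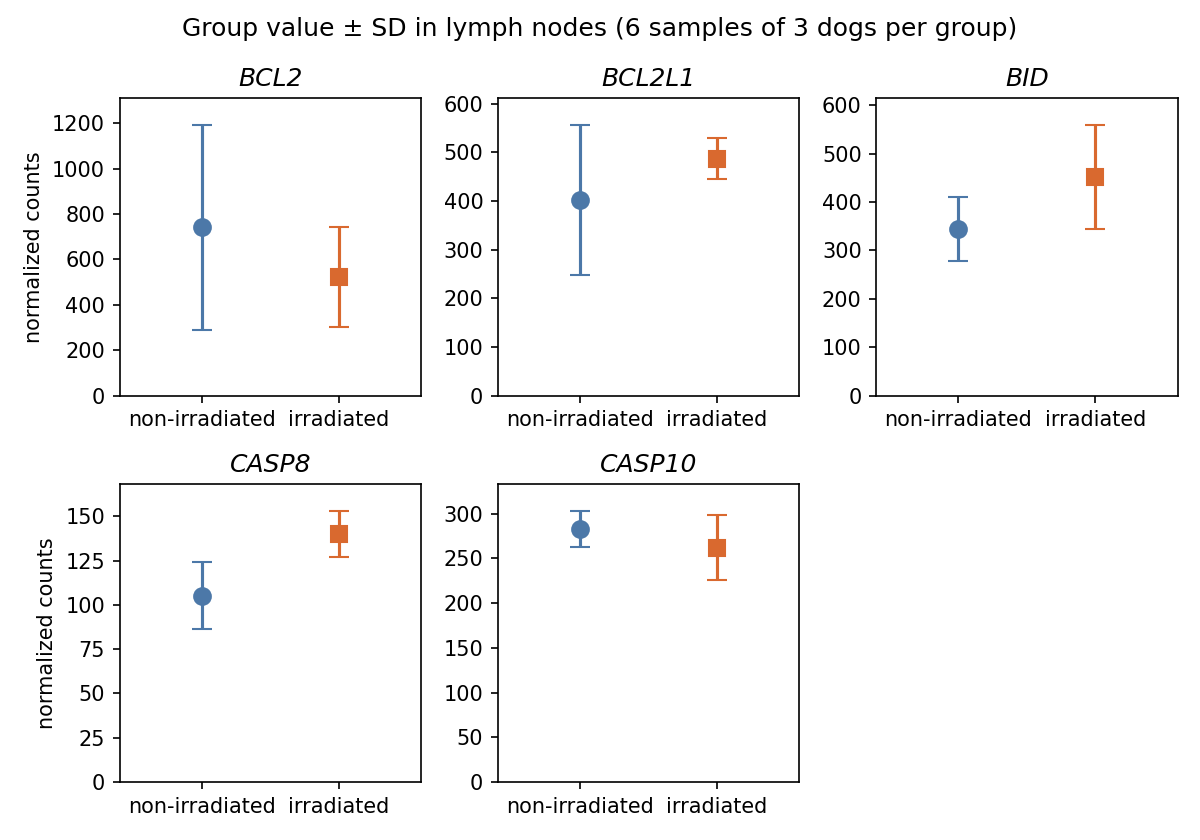
Normalized counts of the 5 genes (linear axes from 0), with circles for non-irradiated and squares for irradiated nodes; points are the authors' group values and bars the deposited SD over the samples of a group. The bars of CASP8 lie apart, from 86.1 to 124 and from 127 to 153 normalized counts, while those of the other 4 genes overlap.

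BCL2, the founding inhibitor of mitochondrial death, had the lower value in irradiated nodes and the largest log2 ratio in size among the 5 genes, a size reached by 21.2% of the panel. The authors' values were 741 normalized counts (SD 451) in non-irradiated and 523 (SD 221) in irradiated nodes. Without values of single samples their overlap cannot be read, but the ranges of 1 SD overlapped widely, from 290 to 1192 and from 302 to 743. The log2 ratio, irradiated over non-irradiated, was -0.50 ± 0.33 SE (adjusted p = 0.426). Its 95% interval ran from -1.21 to 0.21, that is from 0.431- to 1.16-fold, so a marked fall and a small rise were both within it. The BCL2 probe targets NM_001002949.1 from base 1150 of that transcript.

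BCL2L1, which encodes the related inhibitor BCL-xL, lay on the other side of 0. Its value was 402 normalized counts (SD 154) in non-irradiated and 487 (SD 42.8) in irradiated nodes, or 0.28 ± 0.21 SE on the log2 scale (adjusted p = 0.486). The whole 1 SD range of irradiated nodes, 444 to 530, lay inside that of non-irradiated nodes, 247 to 556. The probe targets NM_001003072.1 from base 391, and the table does not say which splice forms of BCL2L1 it counts.

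BID, the BH3-only protein that carries the death receptor signal to mitochondria, had 344 normalized counts (SD 66.5) in non-irradiated and 452 (SD 107) in irradiated nodes. The log2 ratio was 0.39 ± 0.19 SE, with a 95% interval of 0.998- to 1.73-fold, and did not pass (adjusted p = 0.229). Its 1 SD ranges overlapped between 345 and 410 normalized counts.

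CASP8, the initiator caspase of the death receptor complex, stood closest to the threshold. It had 105 normalized counts (SD 19.0) in non-irradiated and 140 (SD 12.8) in irradiated nodes, which is 1.33-fold. The log2 ratio of 0.41 ± 0.15 SE had a 95% interval of 0.09 to 0.74 (adjusted p = 0.123), and its p ranked 97th among the 780 genes. It was the only one of the 5 whose 1 SD ranges did not overlap; on the panel 8.59% of genes (67) had ranges apart. CASP8 also had the lowest level of the 5, at percentile 38.0 of the panel, whereas the other 4 lay between percentiles 54.0 and 73.8.

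CASP10, the second initiator caspase, differed least. Its 283 normalized counts (SD 19.96) in non-irradiated and 262 (SD 36.3) in irradiated nodes corresponded to -0.11 ± 0.14 SE on the log2 scale (adjusted p = 0.694). The 95% interval ran from 0.757- to 1.13-fold, the narrowest of the 5 on the log2 scale. CASP10 and CASP8 are neighbouring genes in the dog RefSeq table (assembly UU_Cfam_GSD_1.0), where CFLAR, a catalytically inactive relative that inhibits CASP8 activation, adjoins CASP10 on the other side. CFLAR had no probe in the table.

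**Figure D2:**
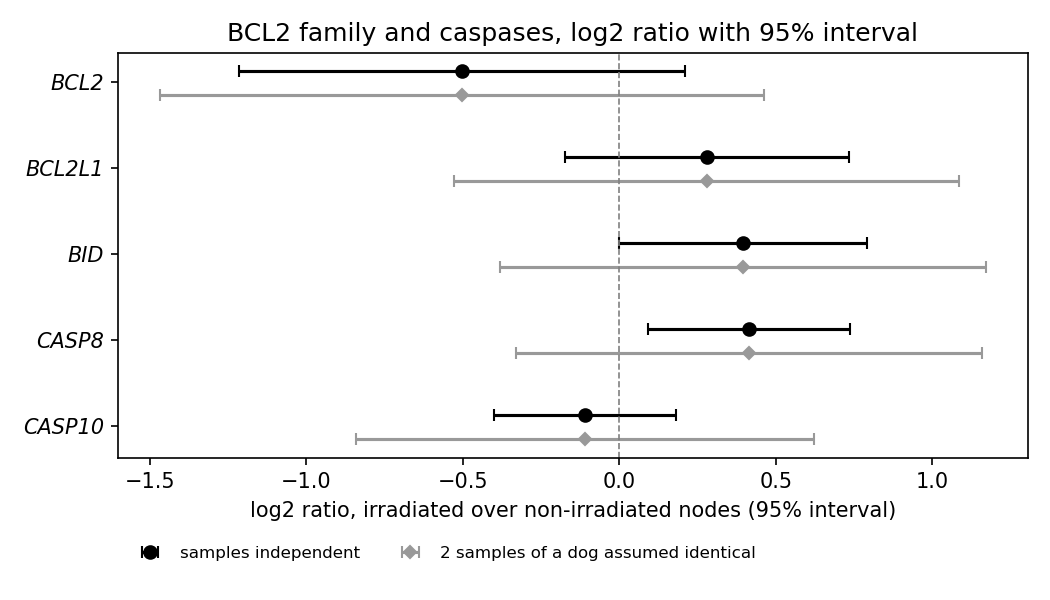
Log2 ratio, irradiated over non-irradiated, for the 5 genes, with 95% intervals from limma's moderated test. Black circles take all samples as independent and grey diamonds assume the 2 samples of a dog identical; in the second case every interval spans 0.

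How far the intervals rest on counting samples was examined by supposing both samples of a dog to be identical. In that case the SEs of the 5 genes were 1.36 to 2.52 times as large. The interval of CASP8 widened to 0.796- to 2.23-fold. The moderation over genes was refitted in this setting and drew the SEs together, from 0.34 for CASP10 to 0.45 for BCL2. These changes therefore reflect both the counting of samples and the refitted moderation. The adjusted p was 0.999 for each of the 5 genes, 0 of 5 reached an unadjusted p under 0.05, and 0 genes of the panel passed, with 35 at an unadjusted p under 0.05. Taking both samples of a dog as identical is an extreme and not a fit to values per dog. The refitted moderation can widen the interval of 1 gene and narrow that of another, so the intervals given for it are not bounds.

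**Figure D3:**
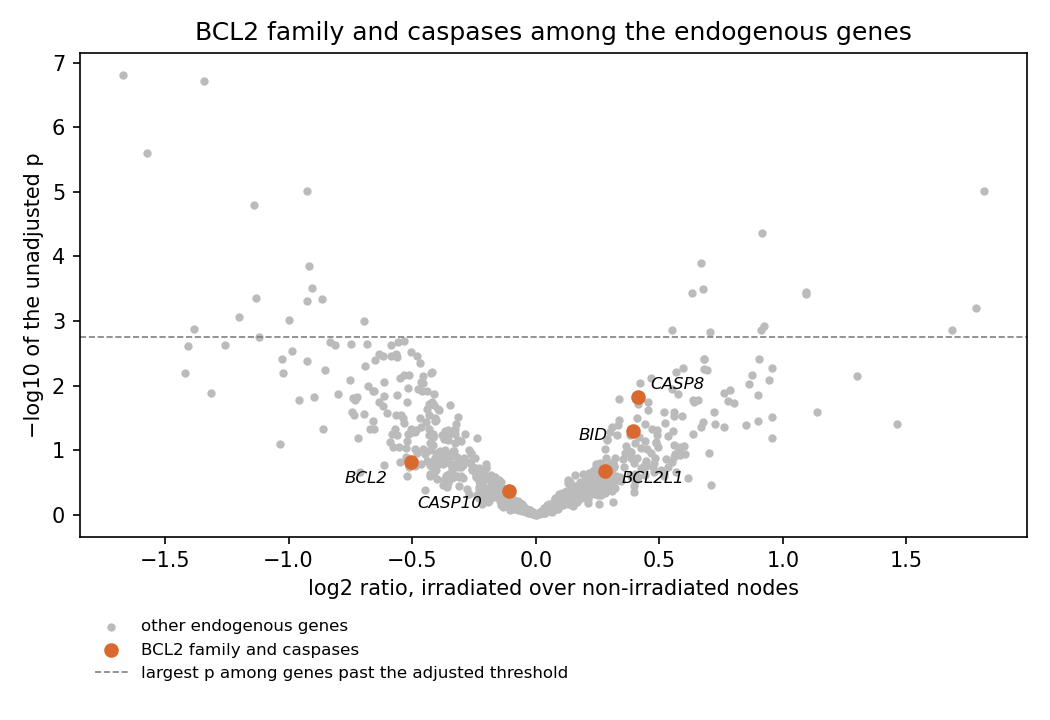
Log2 ratio, irradiated over non-irradiated, against −log10 of the unadjusted p for the endogenous genes (grey), with the 5 genes in orange. The dashed line marks the largest p among the 28 genes past the adjusted threshold, and all 5 genes lie under it.

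The direction of the values was mixed among genes of like function. Of the 5, 3 were higher in irradiated nodes, where 45.1% of the panel was higher, and their median log2 ratio was 0.28 against -0.05 over all endogenous genes. The median size of the log2 ratio, without sign, was 0.39 for the 5 genes and 0.26 for the panel. With 5 genes and 0 past the threshold, these medians describe the group and were not tested.

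Genes with opposing or parallel roles were set against each other by the difference of their log2 ratios. Because the covariance of 2 genes over samples is not given, each difference was given the widest SE that any covariance allows, the sum of both SEs. Over all 10 pairs, 0 of the 95% intervals excluded 0, and the same held with samples of a dog assumed identical. That count rests on the widest SE. With a narrower SE some intervals could exclude 0, so the count does not show that the genes changed alike. The initiators CASP8 and CASP10 differed by 0.52 ± 0.29 (interval -0.09 to 1.14). The inhibitors BCL2L1 and BCL2 differed by 0.78 ± 0.54 (interval -0.38 to 1.95). The largest difference lay between CASP8 and BCL2, at 0.92 ± 0.48 (interval -0.12 to 1.95), while BID and CASP8, the enzyme that cleaves it, had nearly the same log2 ratio (difference of CASP8 over BID 0.02 ± 0.34, interval -0.70 to 0.74).

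The relative spread between samples differed among the 5 genes. BCL2 had the largest relative SD in both groups, 60.9% of the group value in non-irradiated and 42.2% in irradiated nodes. CASP10 was tight in both, at 7.06% and 13.8%. The panel medians were 32.2% and 22.9%.

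BCL2L1 stood out by its difference in spread, with a relative SD of 38.4% in non-irradiated and 8.79% in irradiated nodes, 4.37 times as large. A ratio at least as large was found for 47 of the 780 genes, or 6.03%. The ratio was above 1 for 3 of the 5 genes and for 65.4% of the panel, with a panel median of 1.30. CASP10 and BID went the other way, with relative SDs 1.96 and 1.23 times as large in irradiated nodes. These differences in spread were not tested, and with 3 dogs in a group 1 dog can set them.

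**Figure D4:**
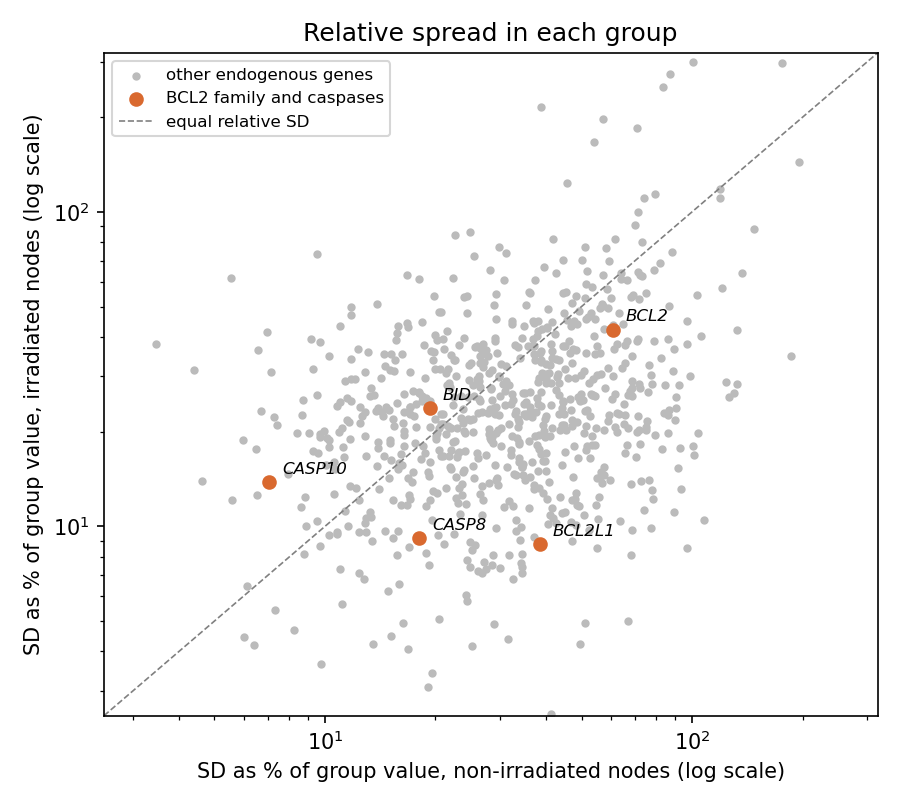
Relative SD (SD as a percent of the group value) in non-irradiated against irradiated nodes on logarithmic axes, with the endogenous genes in grey, the 5 genes in orange and equal spread as a dashed line. BCL2L1 lies farthest below the line among the 5, at 38.4% and 8.79%.

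To place the 5 genes in their pathway, 50 further genes of cell death and lymphocyte survival were listed, of which 23 had a probe. By the same test 2 of the 23 rose and 0 fell, where 3.59% of the panel passed in either direction. An unadjusted p under 0.05 was reached by 7, against 21.9% of the panel. Higher values were found for 12 and lower values for 11, where 45.1% of the panel was higher. The median log2 ratio of the 23 was 0.02, against -0.05 over all endogenous genes. CDKN1A, a cell cycle inhibitor whose transcription DNA damage switches on, rose 1.89-fold (0.92 ± 0.16 SE, adjusted p = 0.00485), from 197 to 371 normalized counts. GZMB, the granule protease that can cleave BID in target cells, rose 1.90-fold (0.92 ± 0.23 SE, adjusted p = 0.0419), from 79.8 (SD 24.8) to 151 (SD 43.9). The GZMB call was lost with each gene's own variance (adjusted p = 0.0549), with separate variances per group (0.0648) and with SDs converted by the delta method (0.0753). With samples of a dog assumed identical neither gene passed (adjusted p = 0.855 and 0.883).

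Upstream of CASP8 and CASP10, death receptors and ligands were divided. Of 6 measured genes 3 were higher and 3 lower, and 0 passed. For FAS, the receptor of FAS ligand, the log2 ratio was 0.41 ± 0.17 SE (adjusted p = 0.178). For TNFRSF1A, a receptor of tumor necrosis factor, it was -0.55 ± 0.18 SE (adjusted p = 0.0865), and both had an unadjusted p under 0.05. FADD, the adaptor that joins FAS to both initiators, had 210 and 205 normalized counts in non-irradiated and irradiated nodes (log2 ratio -0.03 ± 0.20 SE, adjusted p = 0.961).

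Downstream of BCL2 and BID, the only pore-forming member with a probe was BAX, with 247 normalized counts (SD 179) in non-irradiated and 338 (SD 61.8) in irradiated nodes (log2 ratio 0.45 ± 0.32 SE, adjusted p = 0.449). Its relative SD, like that of BCL2L1, was the larger in non-irradiated nodes. BIRC5, which encodes survivin, an inhibitor of apoptosis protein that also acts in cell division, had 0.94 ± 0.31 SE (adjusted p = 0.0894, unadjusted p under 0.05).

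Of the 3 granule genes listed 2 were higher. Outside the list, the panel also held the granzymes GZMK (-0.07 ± 0.20 SE) and GZMH (-0.0016 ± 0.30 SE), which differed little. The log2 ratio was 0.79 ± 0.27 SE for the protease GZMA (adjusted p = 0.111, unadjusted p under 0.05) and -0.10 ± 0.19 SE for the pore protein PRF1 (adjusted p = 0.812). Among 4 inflammasome genes, which act with inflammatory caspases that had no probe, 3 were higher, 0 passed and 0 had an unadjusted p under 0.05. Their largest log2 ratios were those of IL1B (0.28 ± 0.38 SE), at 21.5 and 26.2 normalized counts, and the sensor NLRP3 (0.26 ± 0.21 SE).

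Of 6 listed receptors through which lymphocytes receive survival signals 5 were lower, with a median log2 ratio of -0.35, and 0 passed. IL15RA, among the lower ones, differed little (-0.02 ± 0.15 SE). Outside the list, IL2RB, another chain of the interleukin-2 receptor, fell and passed narrowly (-1.12 ± 0.29 SE, adjusted p = 0.0487). The largest log2 ratios were those of CD27 (-0.58 ± 0.28 SE, adjusted p = 0.241) and of TNFRSF13C, the BAFF receptor of B cells (0.54 ± 0.26 SE, adjusted p = 0.245). IL2RG, the chain shared by several interleukin receptors, had -0.35 ± 0.13 SE (adjusted p = 0.138, unadjusted p under 0.05). IL7R, whose signal maintains BCL2 in T cells, had -0.46 ± 0.32 SE (adjusted p = 0.435).

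**Figure D5:**
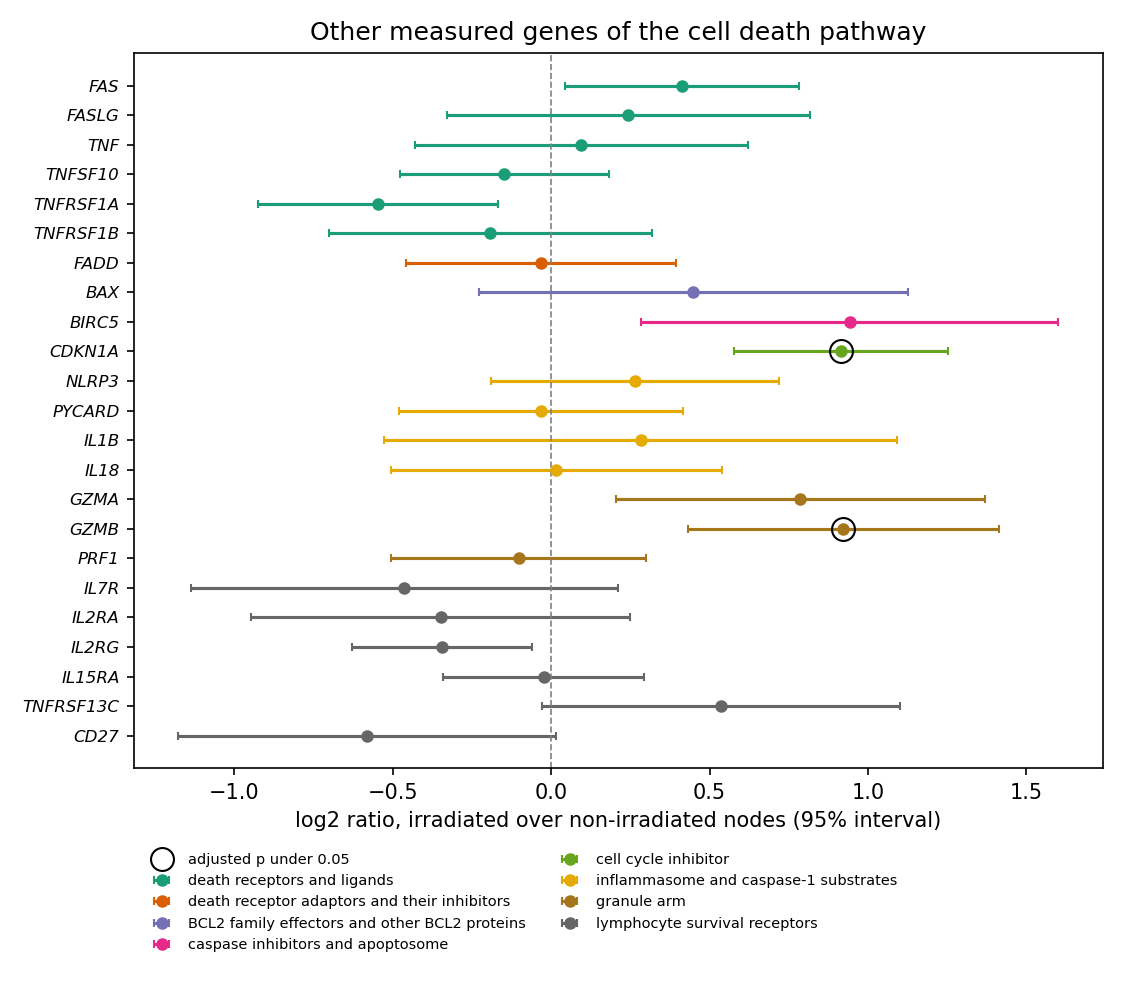
Log2 ratio, irradiated over non-irradiated, with 95% intervals for the 23 measured genes of the death and survival pathways, coloured by sub-list. Circled points, CDKN1A and GZMB, had an adjusted p under 0.05 by limma's moderated test with samples taken as independent.

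Markers of the cell types that a node can hold were read beside these genes. In such bulk RNA, fewer cells of a type and less RNA per cell cannot be told apart. Of 8 T cell markers 6 were lower in irradiated nodes, with a median log2 ratio of -0.21 and a sum of 13322 normalized counts in non-irradiated and 10513 in irradiated nodes, and the largest ratio was that of CD3E (-0.74 ± 0.30 SE). Both CD8 genes were lower, CD8B at -1.42 ± 0.44 SE and CD8A at -1.41 ± 0.38 SE, with a sum of 989 against 371. Of 7 B cell markers 6 were higher, led by MS4A1 (0.56 ± 0.26 SE), with a median of 0.25 and sums of 9977 and 11328. In these 3 lists 0 markers passed and 3 had an unadjusted p under 0.05, and every marker had values well above 0 in both groups, the lowest being 170 normalized counts.

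Plasma cell markers were higher in 3 of 3 cases (median 0.80, sums 995 and 2034 normalized counts), and 0 passed. The largest ratio was that of TNFRSF17 (1.46 ± 0.64 SE, adjusted p = 0.202). TNFRSF17 had 464 normalized counts in non-irradiated and 1280 in irradiated nodes, and its relative SD was 196% in non-irradiated and 144% in irradiated nodes. Of 4 measured dividing cell markers all had the higher value in irradiated nodes (median 0.79, sums 1957 and 3525), but that of MKI67, which encodes the proliferation marker Ki-67, differed little (0.08 ± 0.17 SE, adjusted p = 0.845). BIRC5, already given with the pathway genes, is also among these markers. PCNA rose (0.63 ± 0.14 SE, adjusted p = 0.0215), and CDK1 had the largest ratio (1.30 ± 0.41 SE, adjusted p = 0.0825). Macrophage markers were lower in 4 of 6 cases (median -0.23, sums 3071 and 2236), led by CSF1R at -0.73 ± 0.30 SE. Natural killer cell markers were lower in 4 of 5 (median -0.31, sums 742 and 650), led by NCR1 at -0.61 ± 0.22 SE. Neutrophil markers were higher in 5 of 5 (median 0.26, sums 1651 and 1861), and the largest ratio, that of S100A12, was 0.31 ± 0.67 SE. The relative SD of S100A12 was 300% in irradiated nodes, and the ratio of S100A8 was 0.03 ± 0.64 SE. Outside the list, the neutrophil granule genes ELANE (-0.86 ± 0.40 SE, adjusted p = 0.220), CTSG (-0.72 ± 0.36 SE) and CAMP (-0.71 ± 0.55 SE) had lower values. LCN2 (-0.31 ± 0.16 SE) and LTF (-0.22 ± 0.25 SE) were lower too, while the receptor CXCR1 was higher (0.15 ± 0.18 SE). In the macrophage, natural killer cell and neutrophil lists 0 markers passed. Outside the marker lists, CD96 (-0.93 ± 0.21 SE, adjusted p = 0.023) and CTSW (-1.20 ± 0.29 SE, adjusted p = 0.0359), genes of T and natural killer cells, fell. IL2RB fell as well, whereas GZMB rose, as given above.

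Of the listed markers that passed, most were stromal. Endothelial markers were lower in 5 of 5 (median -0.68, sums 3032 and 2382), and CDH5 fell (-1.14 ± 0.18 SE, adjusted p = 0.00209). Of 7 fibroblast and reticular cell markers 5 were lower (median -0.43, sums 13416 and 8686), and PDGFRA (-1.67 ± 0.17 SE, adjusted p = 7.57e-05), CXCL12 (-1.34 ± 0.14 SE, adjusted p = 7.57e-05) and PDGFRB (-0.92 ± 0.18 SE, adjusted p = 0.012) fell. Of 6 epithelial markers 5 were higher (median 0.36, sums 512 and 563), and KRT18 rose (1.09 ± 0.23 SE, adjusted p = 0.0215). The other one, CDH1, had the highest level of the 6 in both groups, 285 normalized counts in non-irradiated and 205 in irradiated nodes (-0.48 ± 0.16 SE, adjusted p = 0.109). MUC1, among the higher ones, had only 8.43 normalized counts in non-irradiated and 10.3 in irradiated nodes. Outside the list, the keratin gene KRT8 differed little (-0.02 ± 0.27 SE). The part that these cell type markers have in the values of the BCL2 family and caspase genes was not tested.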

How the data were processed

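Lymph node RNA was measured on the NanoString Canine IO panel, with 6 samples of 3 dogs in each group; groups follow the irradiation status in the labels. The deposited table, exported by the authors from nSolver (version and background setting not given in the sources used here), holds for each probe 1 normalized signal per group, in normalized counts, and its SD. Its columns of fold changes, limits and p-values, the authors' own comparison, were not used. No values of single samples were used, so the depth of a sample is unknown and the number of samples limits the precision. For 4 probes the SD exceeded 2.45 times the group value, which no arithmetic mean of 6 samples allows. The mean log2 ratio over the 20 housekeeping genes was -2.62e-05. The group values were therefore read as geometric means scaled to these genes. When the housekeeping genes were fitted with the panel, 5 of the 20 had an unadjusted p under 0.05 by limma's moderated test. That the SD is over 6 samples is an assumption.

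The log2 SD of each group was recovered from SD and group value by the log-normal relation, pooled, and moderated over the 780 endogenous genes with limma (version 3.58.1, R 4.3.3; 4.09 prior and 10 residual degrees of freedom), with a 2-sided test, Benjamini-Hochberg adjustment and a threshold of 0.05. Steps were tested on simulated data. Python 3.11.15 with scipy 1.17.1 and pandas 2.3.3 did the rest. Symbols of the 5 genes described matched the RefSeq gene table, used for names and gene order only. The genes named are the genes of the rule, pathway genes at an unadjusted p under 0.05 or with the largest ratios of a sub-list, and marker genes past the threshold or with the largest ratio. Besides these, CD8A, PRF1, IL7R, CDH1, MKI67, GZMK and GZMH were chosen after their values were seen. The same holds for IL15RA, IL2RB, CD96, CTSW, S100A8, ELANE, CTSG, CAMP, LCN2, LTF, CXCR1, MUC1 and KRT8. Of the rule, the pathway list and the B cell markers, 1 gene each was fitted with the panel but is not reported here, and counts, medians and sums over these lists leave it out. Members and lists were chosen with earlier results of these data known, and the pair differences, SD ranges and relative spreads were added after the values were seen. Alternatives were the methods' test with own variances, separate variances, the delta method (SD over group value), a trended prior, identical samples of a dog, 2 centrings, a minimum level of 20 normalized counts, a pseudocount of 10, the housekeeping genes included and no adjustment.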

Additional observations from a re-analysis of the deposited data

How the results depend on the processing

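The 5 genes kept their direction under both centrings and the pseudocount, the only alternatives that move a log2 ratio. Under each alternative with adjustment 0 of 5 passed the threshold; without adjustment 1 did. With samples taken as independent, the adjusted p ranged from 0.068 to 0.154 for CASP8 and from 0.187 to 0.287 for BID, and from 0.401 to 0.853 over BCL2, BCL2L1 and CASP10. BID reached an unadjusted p under 0.05 in 8 of these 10 settings. Against 28 genes of the panel past the threshold, SDs by the delta method gave 16 (the cause was not tested), identical samples of a dog 0 and no adjustment 171; other settings gave 25 to 38. In the pathway list, with 2 in the main setting, these 3 gave 1, 0 and 7. Of all endogenous genes 45.1% were higher with nodal irradiation, which became 50.0% when centred on the endogenous and 47.9% on the housekeeping median. Leaving out a sample or a dog was not run, since it needs values of single samples. No paired analysis was possible because no dog is in both groups. Of the endogenous genes 61 lay under 20 normalized counts, none of them among the 5.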
